A study of Mus musculus with 6 samples.

Results

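The genes described here are 9 mouse genes of the G1 checkpoint, cyclins, kinases, inhibitors and the tumour suppressor *Rb1*, found by mouse symbol: *Cdkn2a*, *Cdkn2b*, *Cdkn1b*, *Rb1*, *Ccnd1*, *Ccnd2*, *Ccnd3*, *Cdk4* and *Cdk6*. Of the 9, 7 had a row among the 18324 gene rows of the count table, and *Cdkn2a* and *Cdkn2b* had none. The cells were B16-F10, a mouse melanoma line in culture, sorted by flow cytometry on the light scatter of melanin into high-pigmented cells (HPC) and low-pigmented cells (LPC). No genetic change or drug is named in the labels, and both groups come from the 1 line. Each group had 3 libraries of 3′-end sequencing, and 1 library of each group shares a title suffix, which gives 3 pairs: pair 1 (suffix 16-9-15), pair 2 (18-8-14) and pair 3 (1-9-14). The labels do not say whether libraries came from separate cultures, so p values measure the spread between these libraries, which may be technical.

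A cell leaves G1 when D-type cyclins bind the kinases CDK4 and CDK6 and these phosphorylate the retinoblastoma protein, the product of *Rb1*. The retinoblastoma protein otherwise holds back E2F, the transcription factor of genes for DNA synthesis. The INK4 proteins of *Cdkn2a* and *Cdkn2b* block CDK4 and CDK6, and the p27 protein of *Cdkn1b* blocks cyclin E with CDK2. Loss of *Cdkn2a* is common in melanoma, and B16 is known as a line without it.

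Gene counts totalled 3819605 to 7311131 per library. Levels are CPM, counts scaled to library size with TMM factors; a transcript gives reads from its 3′ end only, so CPM was not divided by length. Pair 2 stood apart. A single row, RP23-81C12.3, took 53.9% of its HPC and 27.1% of its LPC gene counts, against 3.54% to 5.03% in the other libraries, and results are therefore also given without pair 2. The 7 melanocyte markers all had counts and summed to 4443 to 20733 CPM in HPC and 6189 to 17282 CPM in LPC libraries. Of 17 markers of leukocytes, fibroblasts, endothelium and keratinocytes, 8 had a row. *Ptprc*, *Adgre1*, *Cd3e*, *Col3a1*, *Dcn*, *Cdh5*, *Kdr*, *Krt5* and *Krt14* had none. The highest sums of these 4 lists, 33.2, 21.0, 11.6 and 15.1 CPM, were all in the HPC library of pair 2; their part in the results was not tested.

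*Cdkn2a* lies on chromosome 4 (89274471 to 89294653, minus strand, GRCm38), and *Cdkn2b*, which encodes p15, lies beside it (89306299 to 89311039, minus strand). Every row of the table has at least 1 count over the 6 libraries, so a gene without a row had no count, was missing from the annotation used for counting, or is not analysed here. These cases cannot be told apart. Of 21924 protein-coding symbols in GENCODE vM21, 38.8% had no row, so a missing row is common. Some genes on both sides had counts, and others had few or had no row. *Mtap*, the gene of methylthioadenosine phosphorylase, lies 93390 bases from *Cdkn2a* at lower coordinates and had 775, 92 and 418 counts in the HPC and 895, 195 and 578 in the LPC libraries of pairs 1, 2 and 3. *Klhl9*, farther out on the same side, had 63 to 389 counts, *Focad* had 0 to 3, and *Ifne* and *Hacd4* had no row. On the other side *Dmrta1*, 384783 bases away, had 10 and 8 counts in the libraries of pair 3 and 0 in the other 4, and *Elavl2* and *Tusc1* had no row.

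*Cdkn1b* (chromosome 6, 134920401 to 134925513, plus strand), the gene of the CDK inhibitor p27, had 38.2, 47.1 and 101 CPM in the HPC libraries of pairs 1, 2 and 3. The LPC libraries had 39.8, 58.9 and 91.1 CPM in the same order. The libraries of pair 3 were the highest and those of pair 1 the lowest in both groups, which overlapped almost fully. In these bulk libraries fewer cells expressing a gene and less RNA per cell cannot be told apart. The log2 fold change of high over low was -0.03 ± 0.51 (SE; 95% interval -1.20 to 1.15; adjusted p 0.9996 in edgeR's quasi-likelihood test). Without the HPC library of pair 3 it was -0.58, and without the LPC one 0.34.

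*Rb1* (chromosome 14, 73183673 to 73325822, minus strand) was among the scarcer members, with 19.8, 25.0 and 12.7 CPM in HPC and 13.1, 24.3 and 12.1 CPM in LPC libraries of pairs 1, 2 and 3. The HPC side was higher in all 3 pairs, by 0.59, 0.04 and 0.08 (log2), but the groups overlapped. Its log2 fold change was 0.22 ± 0.59 (SE; adjusted p 0.9996 in edgeR), and -0.01 without the HPC library of pair 2. In the last 500 exon bases of *Rb1*, 383 also belong to an exon of *Rcbtb2* on the opposite strand, and the sources do not state the strand setting of the counting, so its counts are uncertain.

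The 3 D-type cyclins are the regulatory subunits that carry growth signals to CDK4 and CDK6. *Ccnd2* (chromosome 6, 127125162 to 127152193, minus strand) was the most abundant member, 49th of 18324 rows by mean CPM, and the steadiest. It had 1259, 1783 and 1567 CPM in the HPC libraries of pairs 1, 2 and 3 and 1202, 1405 and 1360 CPM in the LPC ones. The highest library was 1.48 times the lowest. *Ccnd2* was higher in the HPC library of every pair, by 0.07, 0.34 and 0.20 on the log2 scale, yet the groups overlapped and its log2 fold change of 0.22 ± 0.35 (SE; 95% interval -0.59 to 1.02) did not pass (adjusted p 0.9996 in edgeR).

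*Ccnd1* (chromosome 7, 144929931 to 144939925, minus strand) had 165 CPM in the HPC library of pair 1, 20.4 in that of pair 2 and 20.9 in that of pair 3. The LPC libraries had 156, 55.5 and 40.1 CPM. Both libraries of pair 1 stood above all others, and the highest value was 8.12 times the lowest. The within-pair log2 differences were 0.08, -1.43 and -0.93, and the log2 fold change was -0.28 ± 0.90 (SE; adjusted p 0.9996 in edgeR). It was -2.03 without the HPC and 0.55 without the LPC library of pair 1. The last 500 exon bases of *Ccnd1* lie wholly within exons of *LTO1* on the opposite strand, so its counts are uncertain.

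*Ccnd3* (chromosome 17, 47505051 to 47599691, plus strand) varied most among the members with counts in every library. It had 274, 38.4 and 29.6 CPM in HPC and 187, 70.9 and 31.7 CPM in LPC libraries of pairs 1, 2 and 3. As with *Ccnd1*, both libraries of pair 1 were the highest. Its log2 fold change was 0.24 ± 0.95 (SE; adjusted p 0.9996 in edgeR). Without the HPC library of pair 1 it was -1.52, without the LPC one 1.17. The gene shares nearly identical stretches with 64 other genes, of which *Ccnd3-ps* has the longest (881 nucleotides), and exon sequence with *Bysl* on the opposite strand.

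*Ccnd2* had most of the D-type cyclin counts in every library. Its share of the 3 genes' counts was 74.1% (exact Clopper-Pearson 95% interval 73.3% to 75.0%, counting error only) in the HPC and 77.8% (76.9% to 78.6%) in the LPC library of pair 1. In the other 4 libraries it lay between 91.7% and 96.9%. The shares of *Ccnd1* and *Ccnd3* in the HPC library of pair 1 were 9.74% and 16.1%, and 10.1% and 12.1% in its LPC library. In the other 4 they were 1.11% to 3.62% and 1.83% to 4.63%. Of the last 500 exon bases, 500 of *Ccnd1* and 361 of *Ccnd3* lie in exons of opposite-strand genes, against 0 of *Ccnd2*. The part of these overlaps in the shares was not tested. Between groups the *Ccnd2* share was 89.3% ± 13.1 (SD, n = 3) in HPC and 88.2% ± 9.14 (SD, n = 3) in LPC, a difference far smaller than the spread. The *Ccnd1* share alone differed in 1 direction in every pair, being lower in HPC by 0.370, 2.52 and 1.51 percentage points, with group means of 4.05% ± 4.93 and 5.51% ± 4.01 (SD, n = 3 each). These shares were not tested, and without the LPC library of pair 1 the difference in group means turned from -1.46 to 0.836 points. Against the D-type cyclins, *Cdkn1b* had 2.25, 2.56 and 6.22 counts per 100 in HPC and 2.58, 3.85 and 6.37 per 100 in LPC libraries. This ratio was highest in both libraries of pair 3 and lower in HPC within every pair, though by a difference of only -0.141 in pair 3. The group means were 3.68 ± 2.21 and 4.26 ± 1.93 (SD, n = 3 each). Without the LPC library of pair 3 their difference turned from -0.584 to 0.467, and the ratio was not tested.

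**Figure D1:**
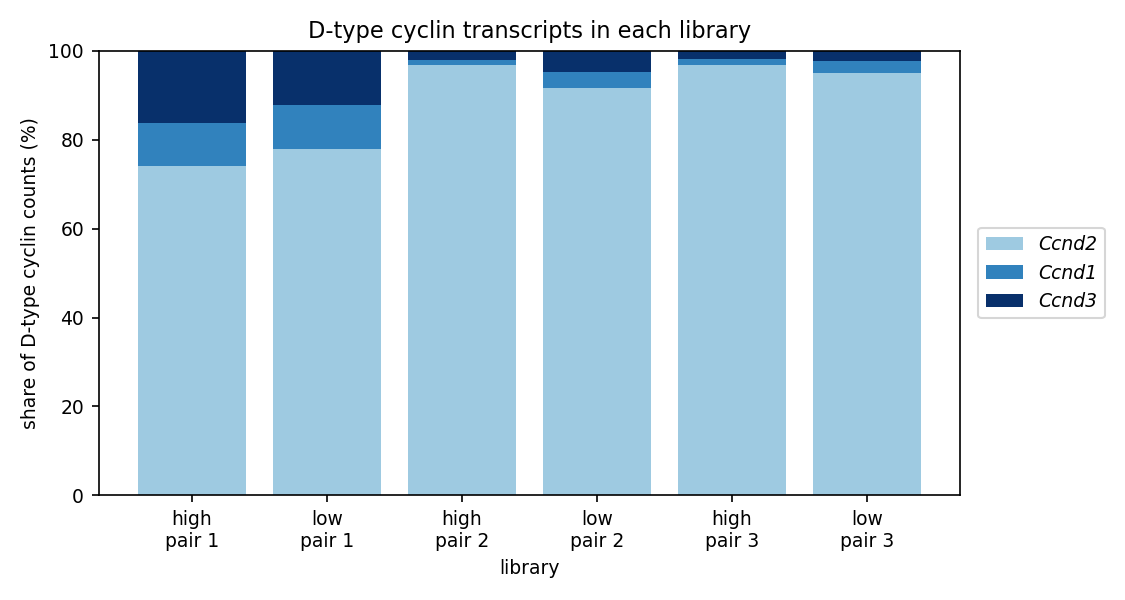
Share of *Ccnd1*, *Ccnd2* and *Ccnd3* in the summed counts of the 3 D-type cyclin genes (vertical axis, percent) in each of the 6 libraries (horizontal axis, by pair and pigment group). Both libraries of pair 1 have less *Ccnd2* (74.1% and 77.8%) than the other 4 libraries (91.7% to 96.9%).

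*Cdk4* (chromosome 10, 127063534 to 127067920, plus strand), the main partner kinase of the D-type cyclins here by counts, had 51.7, 13.4 and 44.7 CPM in HPC and 63.3, 22.0 and 44.8 CPM in LPC libraries of pairs 1, 2 and 3. It was the only member lower in the HPC library of every pair, by log2 differences of -0.29, -0.70 and -0.01, the last of which is close to none. The log2 fold change was -0.24 ± 0.61 (SE; 95% interval -1.64 to 1.17; adjusted p 0.9996 in edgeR). Without the HPC library of pair 2 it was 0.15. All of the last 500 exon bases of *Cdk4* also lie in exons of *Tspan31* on the opposite strand, so reads there depend on how strand was handled; the *Tspan31* row itself held only 0 to 19 counts.

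*Cdk6* (chromosome 5, 3341485 to 3531008, plus strand) was barely detected. Raw counts were 48, 2 and 0 in HPC and 33, 62 and 14 in LPC libraries. A count of 0 allows up to 3 counts, or 0.457 CPM without TMM scaling in the HPC library of pair 3. *Cdk4* made up 86.9%, 92.0% and 100.0% of the counts of both kinases in HPC libraries and 92.1%, 55.4% and 96.8% in LPC ones, so the LPC library of pair 2 was the single exception to a clear *Cdk4* majority. The log2 fold change of *Cdk6*, -1.41 ± 1.65 (SE; adjusted p 0.9996 in edgeR), moved to -0.18 without that library and to -4.17 without the HPC library of pair 1. *Cdk6* shares nearly identical stretches with 87 other genes, which adds to its uncertainty.

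**Figure D2:**
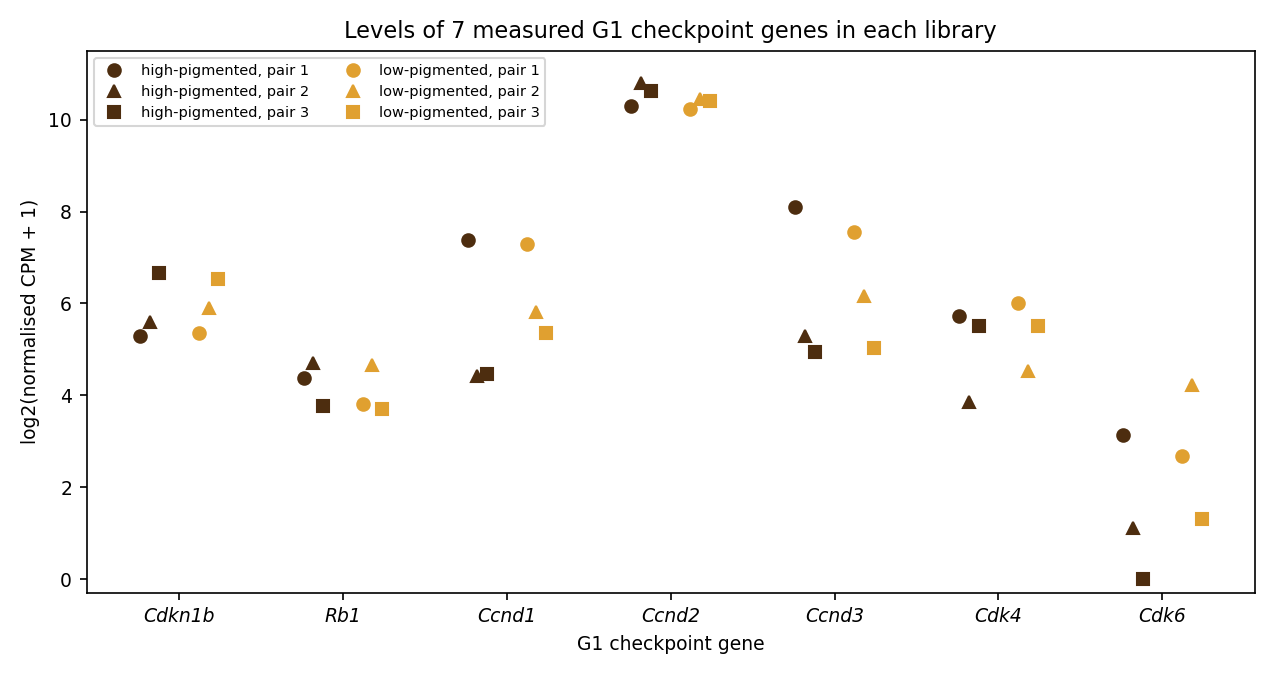
Level of the 7 measured G1 checkpoint genes, as log2 of normalised CPM plus 1 (vertical axis), with 1 point per library, coloured by pigment group and shaped by pair. *Ccnd2* is high in all 6 libraries, while *Ccnd1* and *Ccnd3* are highest in both libraries of pair 1 (156 to 274 CPM) whatever the pigment.

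No member passed the comparison of HPC with LPC. Of the 7 members tested, 0 passed an adjusted p under 0.05 in edgeR, where the background was 0% of 11324 genes. An unadjusted p under 0.05 was reached by 0 of 7. On simulated counts this fit, which ignores the pairs, recovered 0% of genes changed 2-fold and 1.49% of those changed 4-fold. The lack of calls in it therefore says little about changes of that size. DESeq2 called 0 of 7 as well, with 0 at an unadjusted p under 0.05 (background 0.0275%). With the pairs as a block and pair 2 left out, edgeR called 1.30% of all genes and again 0 of 7 members, with 0 at an unadjusted p under 0.05. In that fit the 95% intervals were -0.11 to 0.36 for *Ccnd2*, -0.55 to 0.24 for *Cdk4*, -0.33 to 0.41 for *Cdkn1b* and -0.83 to 0.04 for *Ccnd1* (log2 scale). A change of 2-fold lay outside each of these 4 in this fit, which leaves out pair 2 and has 1 residual degree of freedom. With all 6 libraries and no term for the pairs the intervals were -0.59 to 1.02, -1.64 to 1.17, -1.20 to 1.15 and -2.34 to 1.79 in the same order. Each of those held a 2-fold change. The SEs were smaller with all 6 libraries and the pairs as a block. That fit gave 0.20 ± 0.13 for *Ccnd2*, -0.32 ± 0.28 for *Cdk4*, -0.07 ± 0.22 for *Cdkn1b* and -0.74 ± 0.36 for *Ccnd1* (log2 fold change ± SE). None of these passed (lowest edgeR adjusted p 0.927). For *Cdk6* the interval without pair 2, -2.90 to 1.17, was wide and held a 2-fold change in either direction. The groups overlapped in all 7 members, whereas in 5.74% of all genes tested they did not. *Rb1* and *Ccnd2*, 2 of 7, were higher in HPC in every pair, as were 12.9% of all genes, and *Cdk4*, 1 of 7, was lower in every pair, as were 18.2%. The median log2 fold change was -0.03 over the members and -0.04 over all genes.

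The 12 partner genes are a list set beside the members. They are *Ccne1*, *Ccne2*, *Cdk2*, *Cdkn1a*, *Cdkn1c*, *Cdkn2c*, *Cdkn2d*, *Rbl1*, *Rbl2*, *E2f1*, *Mdm2* and *Mdm4*. Of these, 11 were tested and 0 passed in edgeR with all 6 libraries, with 1 (*Cdkn1a*) at an unadjusted p under 0.05; their median log2 fold change was 0.70, and 9 of 11 were above 0, against 47.0% of all genes. In the fit with the block and without pair 2, 2 of 11 passed, both higher in HPC, where the background was 1.30%. They were *Cdkn1a*, the gene of p21, and *Cdk2*, the kinase that works with cyclin E.

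*Cdk2* had 265, 66.9 and 321 CPM in the HPC libraries of pairs 1, 2 and 3 and 159.6, 7.43 and 176 CPM in the LPC ones. The HPC library was higher in every pair (log2 differences 0.73, 3.11 and 0.87), although the groups overlapped because pair 2 was low. In all 6 libraries the log2 fold change was 0.93 ± 0.99 (SE; adjusted p 0.9996 in edgeR). The fit with the block to pairs 1 and 3 alone gave 0.79 ± 0.13 (SE; adjusted p 0.00229, edgeR), limma-voom with the block and sample weights gave 0.82 ± 0.14 (adjusted p 0.0359). *Cdk2* shares 34 exon bases with the pigment gene *Pmel* on the opposite strand, none of them in its last 500 exon bases. *Pmel* was higher by 0.69 and 0.81 in pairs 1 and 3 but lower in pair 2 (-0.58), where *Cdk2* was higher. In the blocked fit without pair 2 *Pmel* was higher by 0.74 (adjusted p 0.000811, edgeR), close to the value of *Cdk2*, and its part in the *Cdk2* counts was not tested. *Cdkn1a* had 401, 414 and 301 CPM in HPC and 211, 140.1 and 186 CPM in LPC. Over all 6 libraries its log2 fold change was 1.05 ± 0.37 (SE; adjusted p 0.9996, edgeR). It was higher by 0.80 ± 0.13 (SE; adjusted p 0.00171, edgeR) in the blocked fit without pair 2, and its groups did not overlap, which held for 1 of 11 partners tested and 5.74% of all genes. Since 97 other genes, 73 with a row, hold a stretch nearly identical to part of *Cdkn1a*, its counts are uncertain.

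The other INK4 genes, *Cdkn2d* and *Cdkn2c*, are the nearest relatives of the absent pair. *Cdkn2d*, an INK4 gene encoding p19, had 86.2, 47.1 and 41.5 CPM in HPC and 54.7, 22.6 and 30.2 CPM in LPC libraries. It was higher in HPC within all 3 pairs (log2 differences 0.65, 1.05 and 0.45), but its log2 fold change of 0.70 ± 0.50 (SE) did not pass in edgeR (adjusted p 0.9996), nor in the blocked fit of pairs 1 and 3 (0.55 ± 0.19, adjusted p 0.189). *Cdkn2c*, the INK4 gene of p18, had 86, 0 and 53 counts in HPC and 41, 7 and 32 in LPC libraries. *Cdkn1c*, the gene of p57, was too scarce to test, with 0 counts in each HPC library and 4, 0 and 14 in the LPC ones. *Mdm2*, which encodes a ubiquitin ligase, was at 105 to 316 CPM and was higher in the HPC library of each pair by 0.46, 0.06 and 0.25, without passing in either fit (adjusted p 0.9996 and 0.262 in edgeR). Its counts are uncertain, as 63 other genes, 43 with a row, hold a stretch nearly identical to part of *Mdm2*.

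**Figure D3:**
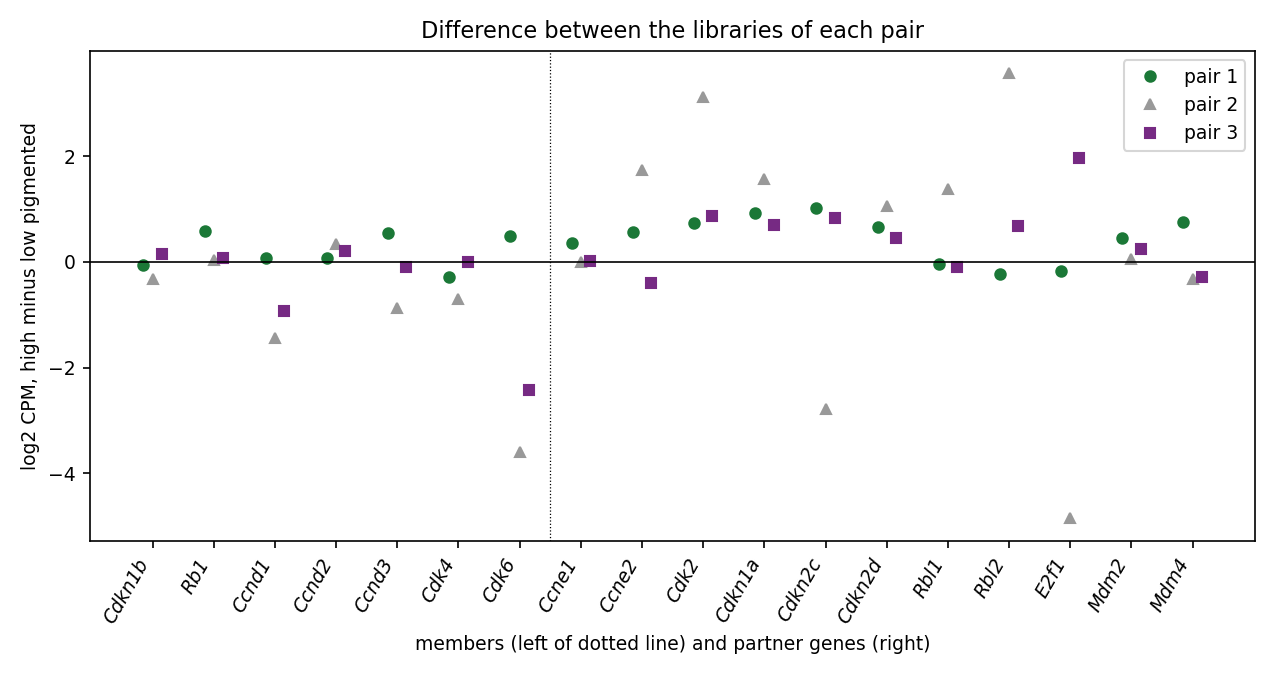
Difference in log2 CPM between the HPC and the LPC library of each pair (vertical axis; above 0 is higher in HPC) for the 7 members and 11 partner genes tested, with 1 point per pair. *Cdk2* and *Cdkn1a* are above 0 in all 3 pairs, while *Ccnd1* and *Ccnd3* change direction between pairs.

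Among the members and partners described here, the profile over the 6 libraries most like that of *Ccnd1* was *Ccnd3*, and the reverse also held (Pearson r = 0.95 of log2 CPM, over 6 libraries of 3 pairs, as a description). *Rb1* was most like *Mdm4* (0.95), *Cdk4* most like *Ccne1* (0.94), *Ccnd2* most like *Ccne2* (0.45) and *Cdkn1b* most like *Ccnd2* (0.33). The depth and composition of each pair are shared by all of these profiles.

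*Ccnd1*, *Ccnd3* and *Cdkn1b* stood at different levels in pairs 1 and 3 in both groups, so these pairs were compared, a comparison chosen after these values were seen. It is the pair term of the edgeR fit to the 4 libraries of these pairs, with pigment as the other term and 1 residual degree of freedom per gene. Each pair is 2 libraries, and what the suffix marks is not stated, so any difference in culture, sort, preparation or sequencing that goes with it cannot be told apart. In all, 25.5% of 11906 genes passed (13.7% higher and 11.8% lower in pair 1). Of the 7 members 4 passed. The SEs rest on these 4 libraries and do not cover the spread between repeats of a suffix. Since *Ccnd1*, *Ccnd3* and *Cdkn1b* led to the comparison, their p values are description only. *Ccnd3* was higher in pair 1, at 2.89 ± 0.18 (log2 fold change ± SE; adjusted p 2.05e-11), *Ccnd1* at 2.45 ± 0.21 (adjusted p 1.47e-07) and *Cdk6* at 3.44 ± 1.00 (adjusted p 0.0164, from at most 48 counts). *Cdkn1b* was lower, at -1.29 ± 0.18 (adjusted p 5.26e-06), 2.45-fold. The *Ccnd3* and *Ccnd1* values equal 7.39-fold and 5.48-fold.

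In the same comparison *Ccnd2* (-0.25 ± 0.12, adjusted p 0.125), *Cdk4* (0.36 ± 0.19, 0.188) and *Rb1* (0.38 ± 0.32, 0.43) did not pass (log2 fold change ± SE, edgeR). The 95% interval of *Ccnd2*, -0.48 to -0.01, lay apart from that of *Ccnd3* (2.52 to 3.25). The *Cdk6* call did not hold when the HPC or the LPC library of pair 1 was left out (log2 fold change 2.84 and 3.36). The values of *Ccnd1*, *Ccnd3* and *Cdkn1b* kept their direction under each of the 7 alternatives. Those genes led to the comparison, and the alternatives reuse the same libraries or a part of them. Their steadiness and the *Ccnd3* interval are therefore description only. Beside these values, melanocyte markers summed to 12354 and 10621 CPM in the HPC and LPC libraries of pair 1 and to 20733 and 17282 CPM in those of pair 3; their part in the difference was not tested.

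**Figure D4:**
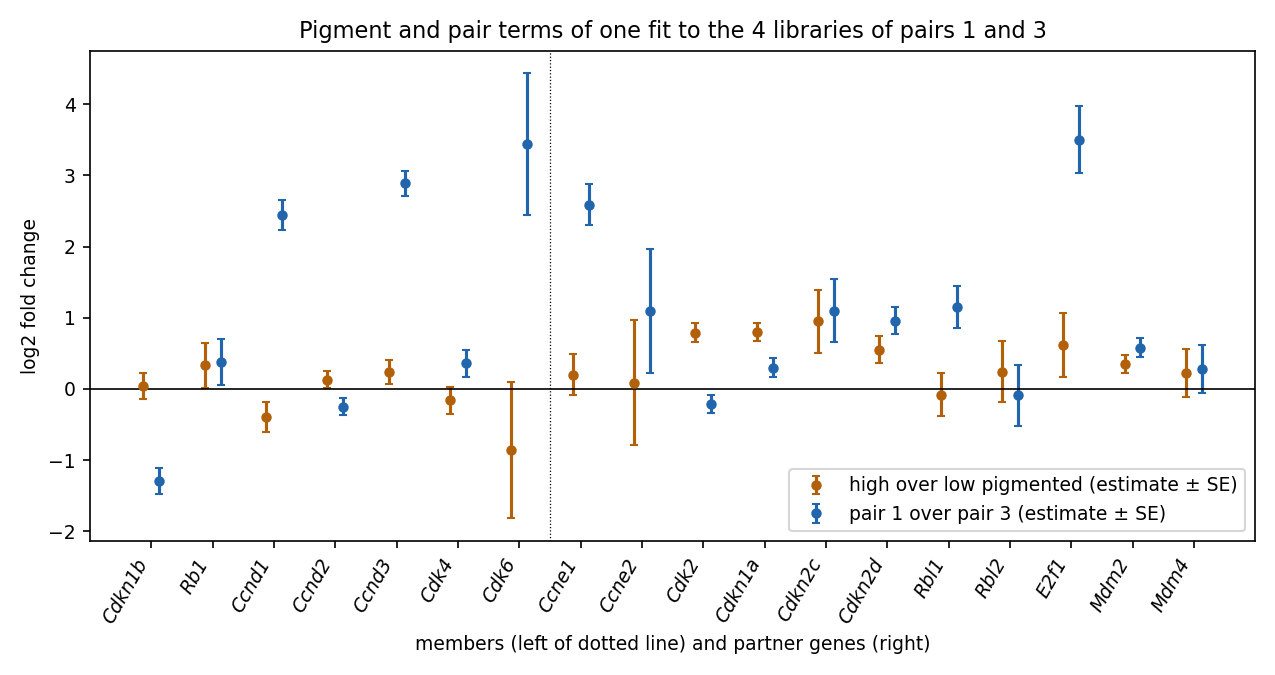
Log2 fold change (vertical axis, estimate ± SE) of the 7 members and 11 partner genes in 1 edgeR fit to the 4 libraries of pairs 1 and 3, for high over low pigment and for pair 1 over pair 3. The pair term reaches 2.45 for *Ccnd1*, 2.89 for *Ccnd3* and -1.29 for *Cdkn1b*, whose pigment terms are -0.39, 0.24 and 0.04.

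Of 11 partners tested 5 passed, or 45.5% against 25.5% of all genes, all 5 higher in pair 1: *E2f1* (3.50 ± 0.47), *Ccne1*, the gene of cyclin E1 (2.59 ± 0.29), the pocket protein gene *Rbl1* (1.15 ± 0.30), *Cdkn2d* (0.96 ± 0.19) and *Mdm2* (0.58 ± 0.13; log2 fold change ± SE, edgeR adjusted p 0.00597 or less). *Cdkn2d*, *Rbl1* and *Mdm2* did not pass in some of the fits that leave out 1 library, which also drop the pigment term. Without the HPC library of pair 1 the values were 0.61, 1.17 and 0.34 (adjusted p 0.235, 0.0926 and 0.467). Without the LPC library of pair 1 *Rbl1* had 1.13 (adjusted p 0.116), and without that of pair 3 *Cdkn2d* and *Mdm2* had 0.76 and 0.47 (0.0648 and 0.311). Without the HPC library of pair 3 *Mdm2* had 0.72 (0.0861). *Ccne1* had 38.2 and 29.7 CPM in the HPC and LPC libraries of pair 1, 5.61 and 5.56 in those of pair 3 and 0 in both of pair 2. Of 39 other G1 and G1/S regulators tested, 12 were called higher, against 13.7% of all genes, and 1 lower, against 11.8%. Their median was 0.10. In both directions together 33.3% were called, against 25.5% of all genes.

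The gene lists were written with earlier results of these data known, so their shares of calls are description only. Among them the E2F target genes of DNA synthesis moved furthest. Of 30 tested, 23 passed, or 76.7% against 25.5% of all genes, and each of the 23 was higher in pair 1; 30 of 30 had a log2 fold change above 0, with a median of 2.34 against 0.01 over all genes. Between 20 and 24 passed under each of the 7 alternatives, always higher. *Mcm3*, a subunit of the replicative helicase, was higher by 3.08 ± 0.20, the ribonucleotide reductase gene *Rrm2* by 4.83 ± 0.24 and *Uhrf1*, which guides maintenance DNA methylation, by 4.29 ± 0.28 (log2 fold change ± SE; largest edgeR adjusted p of these 3 genes 1.12e-11). *Rrm2* had 104 and 92.4 CPM in pair 1, 3.27 and 3.57 in pair 3 and 0 and 6.29 in pair 2, in the HPC and LPC library of each. Between HPC and LPC, 0 of 27 genes of this list passed in edgeR with all 6 libraries, 0 had an unadjusted p under 0.05, and the median log2 fold change was 0.05. With the block and without pair 2, 0 of 30 passed, 2 had an unadjusted p under 0.05 and the median was -0.02. *Mcm3*, *Rrm2* and *Uhrf1* were picked for display after their values were seen, and *Mcm5*, described next, was too.

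**Figure D5:**
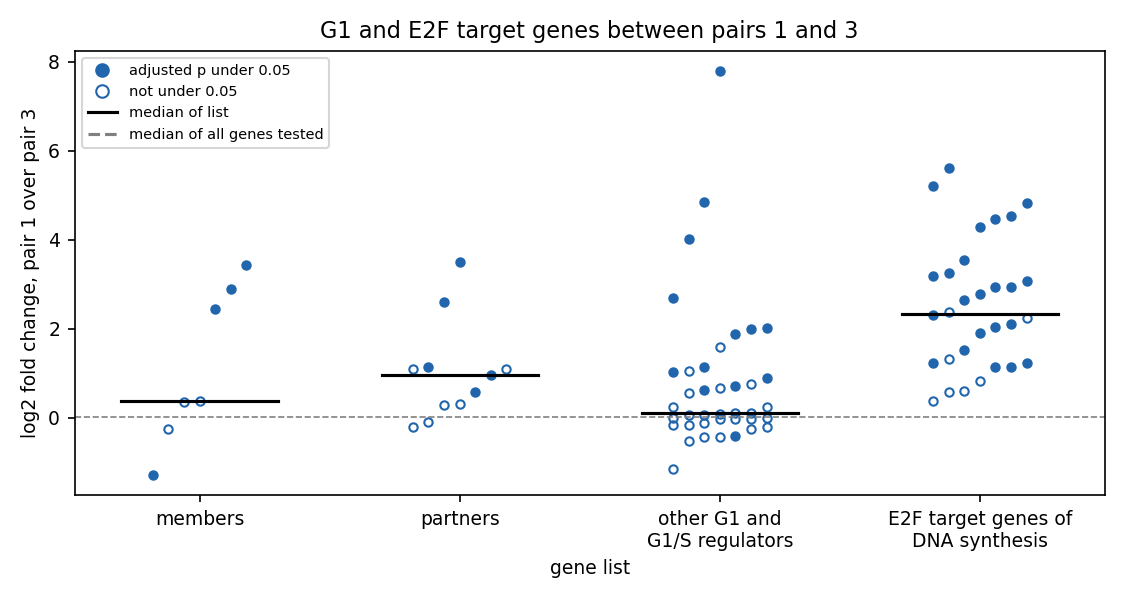
Log2 fold change of pair 1 over pair 3 (vertical axis) for each tested gene of 4 lists (horizontal axis), filled where the edgeR adjusted p is under 0.05; bars are list medians and the dashed line is the median of all genes (0.01). All 30 E2F target genes of DNA synthesis lie above 0, with a median of 2.34. The lists were written with earlier results of these data known.

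Since the called E2F target genes were all higher in pair 1, promoter windows from RefSeq (GRCm38.p6, 250 bases before to 50 after a start) were searched for the E2F words TTTCCCGC, TTTCGCGC, TTTGCCGC and TTTGGCGC on both strands, overlaps allowed. A word was present in 2.60% of 27025 genes with a window (2.26% of 32851 windows), in 11 of the 25 E2F target genes with a window, in 1 of 6 members and in 2 of 10 partners. Because that list was set as E2F target genes, its share with a word was not a test of the difference between pairs. The table has no window for *Rb1*, *Ccnd1* or *Ccnd2*. The stretches below run 5′ to 3′ on the gene's strand with the words in capitals; they show the 1 member and both partners with a word, and 2 of the 11 E2F target genes, picked among those with a word. A match is a run of letters, not a measured site.
*Cdkn2a*, distal start, chr4:89294696-89294733, minus strand: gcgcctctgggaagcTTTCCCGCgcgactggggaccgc
*Rbl1*, chr2:157204530-157204567, minus strand: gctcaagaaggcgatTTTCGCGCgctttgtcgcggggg
*Cdk2*, chr10:128705169-128705206, minus strand: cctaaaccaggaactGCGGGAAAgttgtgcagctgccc
*Mcm5*, chr8:75109341-75109382, plus strand: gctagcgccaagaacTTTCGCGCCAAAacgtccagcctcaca
*Uhrf1*, chr17:56304113-56304150, plus strand: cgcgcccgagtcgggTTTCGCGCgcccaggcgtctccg
The *Mcm5* stretch holds a word on each strand that share bases. The *Cdkn2a* word lies upstream of the distal start of a gene with no row. The window of the other *Cdkn2a* start (chr4:89282143-89282442) has no word. *Rbl1* was higher in pair 1 by 1.15 and *Uhrf1* by 4.29 on the log2 scale. *Mcm5* had 47.8 and 51.6 CPM in pair 1 against 2.69 and 0.210 CPM in pair 3. Words were present in genes that did not pass and absent from genes that did. *Cdk2* has a word and did not pass between pairs 1 and 3 (-0.21), nor did *Rfc3*, which has 2 (0.60), while *E2f1*, *Ccne1*, *Rrm2* and *Tk1* have none in this window and were higher by 3.50, 2.59, 4.83 and 4.54 on the log2 scale.

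The human symbols in the table's second column differ from the orthologs for several of these genes, so all values above use the mouse symbol. *Ccnd2* is listed under CCND3 together with *Ccnd3*, and *Cdk4* under CDK6 together with *Cdk6*, which leaves 0 rows for CCND2 and CDK4. Among the partners, *Cdk2* is listed under CDK3 with *Cdk1*, and *Rbl1* under RBL2 with *Rbl2*. Summed by human symbol, CCND3 would have 9422, 3129 and 13655 counts in HPC libraries, where the *Ccnd3* row has 1685, 66 and 253.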

How the data were processed

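The authors deposited raw counts per gene and library; per the file headers and tally rows, HTSeq made them, and the submitters' processing notes name STAR and GRCm38. Versions, counting mode and strand setting are not given in the sources used here. Tally rows were left out. Libraries held 3819605 to 7311131 gene counts; molecular identifiers are not mentioned, so intervals on shares cover counting error only.

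Genes were tested with edgeR 4.0.16 in R 4.3.3 (filterByExpr with a minimum count of 10, TMM, robust glmQLFit and glmQLFTest, group only), with Benjamini-Hochberg adjustment over all genes tested. Standard errors come from the test statistic. Log2 CPM uses a prior count of 2. DESeq2 1.42.0, limma-voom (limma 3.58.1) with sample weights, RLE factors, no filter, the pair block, and leaving out rows, pair 2 or each library were alternatives. Same-suffix libraries deviated together from their group means (correlations across genes 0.466, 0.316 and 0.422, minimum 0.1), so the suffix was taken to pair them. Replicates of a group all differed beyond sampling noise (lowest chi-square over its degrees of freedom, 61.8).

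Named genes are 9 members and 12 partners (1 more member is not reported here), with the most similar profile for members of at least 10 CPM. Members and lists were chosen with earlier results of these data known. Positions and overlaps are from GENCODE vM21 (GRCm38). Shared stretches (at least 100 nucleotides, 95% identity) are from blastn 2.17.0. On simulated counts the group-only fit recovered 0%, 1.49% and 9.09% of genes changed 2-, 4- and 8-fold (10737 genes). The block fit without pair 2 recovered 58.2%, 83.6% and 90.9% (11490 genes). Figures used matplotlib 3.10.9.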

Additional observations from a re-analysis of the deposited data

Results flagged for a closer look

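Reads that overlap more than 1 gene are outside the gene counts, and bear on *Cdk4*, *Ccnd1*, *Rb1* and *Ccnd3*, whose 3′ ends overlap genes on the opposite strand. They were present in every library, at 1.97%, 0.487% and 2.43% of all tallied reads for the HPC libraries of pairs 1, 2 and 3 and at 2.21%, 1.02% and 2.51% in the LPC ones. Which genes they came from is not analysed here.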

How the results depend on the processing

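The count of genes called between HPC and LPC was 0 in edgeR and 0 with the replicate block; it was 5 with DESeq2, 155 with the block and pair 2 left out, and 34 in limma-voom with sample weights and the block. The replicate block alone changed no call among members or partners, and turned *Ccnd3* to -0.12 and *Mdm4* to 0.05 (log2 fold change, high over low). With the block and without pair 2, *Cdkn1b* turned to 0.04, *Rbl1* to -0.08, *E2f1* to 0.62 and *Mdm4* to 0.22. With sample weights *Cdkn1b* turned to 0.06, *Rbl1* to -0.04 and *Mdm4* to 0.22. None of these turned values passed its test, and the cause was not tested. RLE factors, no filter, DESeq2 and removing the rows of RP23-81C12.3 and mitochondrial rRNA turned no member or partner.

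Leaving out 1 library at a time, the count of calls stayed 0, and the log2 fold change of high over low ranged from -0.58 to 0.34 for *Cdkn1b*, -0.01 to 0.60 for *Rb1*, -2.03 to 0.55 for *Ccnd1*, -1.52 to 1.17 for *Ccnd3*, -0.57 to 0.15 for *Cdk4*, -1.97 to 2.35 for *Ccne1*, -0.32 to 1.34 for *Cdkn2c*, -2.37 to 1.28 for *E2f1*, -0.13 to 0.62 for *Mdm2* and -0.31 to 0.58 for *Mdm4*. The other 8 genes kept their direction, *Cdk6* from -4.17 to -0.18. Differences in shares and in the *Cdkn1b* ratio moved by less than 1 SD throughout, yet each changed sign. The shares (HPC minus LPC, percentage points) ranged from -4.31 to 0.836 for *Ccnd1*, -4.10 to 8.67 for *Ccnd2*, -4.36 to 3.26 for *Ccnd3* and -1.48 to 19.2 for *Cdk4*. For *Cdkn1b* counts per 100 D-type cyclin counts the range was -1.86 to 0.467.

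For pair 1 over pair 3, 3035 genes passed, 1939 without the pigment term and 1606 with DESeq2. Without each library in turn, which leaves 1 library in a pair, assumes that it varies like the others and drops the pigment term, 1178 to 2101 passed. The ranges were then 2.15 to 8.52 for *Cdk6*, -0.64 to 0.26 for *Cdk2*, -0.21 to 0.72 for *Cdkn1a*, -0.43 to 0.25 for *Rbl2* and -0.13 to 0.66 for *Mdm4*. *Rbl1* did not pass with DESeq2 (1.14, adjusted p 0.114), nor *Mdm2* without the pigment term (0.59, adjusted p 0.0737). Low counts limit *Cdk6*, *Cdkn2c*, *Ccne2* and *Cdkn1c*.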
